A study of Mus musculus with 17 samples.

Results

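The transcriptional response of the left ventricle to pressure overload was examined in mice that received the integrin ligand 29P, by comparing the 6 TAC 29P libraries (S1, S3, S8, S9, S11 and S18) with the 3 Sham 29P libraries (S4, S14 and S15). These 9 libraries were taken by their sample titles from the 17 of the series, and 16218 of the 21798 genes in the expression table, those at 0.5 CPM (reads scaled to a common library total) or more in at least 3 libraries, were described. All groups were male C57Bl6/J mice aged 7 to 8 weeks at surgery. TAC (transverse aortic constriction) narrows the aortic arch with a ligature, which was left out in Sham mice. Both 29P groups received 6 oral gavages of 50 μg/kg 29P, an orally available RGD-mimetic prodrug directed at integrin αvβ3, from week 1 after surgery. The 3 TAC Veh and 5 Sham Veh libraries, used for the comparison of surgery effects, came from mice given saline in its place. RNA was taken from the apex of the left ventricle 3 weeks after surgery and sequenced after polyA selection. The labels do not say that each library came from a separate mouse, so p-values measure the spread between these libraries.

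Pressure overload stretches the ventricular wall. Cardiomyocytes are known to respond by re-expressing genes of the fetal heart, among them natriuretic peptides and the slow myosin heavy chain, and by lowering genes of fatty acid oxidation and of calcium return to the sarcoplasmic reticulum. Fibroblasts are known to lay down collagen and other matrix. In whole tissue, fewer cells of a type and less RNA per cell cannot be told apart.

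The apex libraries carried ventricular muscle genes in every case: the 9 detected ventricular markers, such as the myosin heavy chain Myh6, summed to 36027 to 45171 CPM in TAC 29P and to 40478, 33630 and 50738 CPM in Sham 29P S4, S14 and S15. One TAC 29P library, S18, also carried atrial transcripts. Its 7 atrial markers summed to 1633 CPM, with the atrial myosin light chain Myl4 as the most abundant at 518 CPM, while the other 8 libraries of the comparison summed to 3.31 to 9.55 CPM. The ligand Bmp10, 1 of the 7, stood at 514 CPM in S18 and was listed at 0 in the other 8, and was at 0.179 CPM or less in the Sham Veh libraries S19 and S20, which carried the other 6 markers. Sham 29P S14 stood apart in depth and composition, with the smallest estimated depth of the 9 libraries (14.2 M reads against 15.9 to 22.4 M in the others) and 3578 genes listed at 0 against 1478 to 2437. Summed markers of endothelium (492 CPM), fibroblasts (486 CPM) and macrophages (105 CPM) were lowest in S14 of the 9 libraries. Values without S14 are given beside many of the results, and values without S18 beside some.

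Genes encoded by the mitochondrial genome, which supply core subunits of the respiratory chain, took a smaller share of all CPM after TAC. The share was 32.95, 40.01 and 33.92% in Sham 29P S4, S14 and S15, and ranged from 25.10 to 29.43% (median 27.4%) in the 6 TAC 29P libraries. The groups did not overlap. The mean difference was −8.37 percentage points (27.3% ± 1.69 SD, n = 6, against 35.6% ± 3.83 SD, n = 3), with an exact two-sided permutation p of 0.0119, the smallest that the 84 splits allow (0.0446 after Benjamini-Hochberg adjustment over 15 library measures). Without S14 the difference was −6.18 points. CPM values of a library share a fixed total, so these genes and all others were not measured independently. The median log2 fold change over all genes was 0.36 on the CPM scale as deposited (total-count scaling) and 0.01 after trimmed mean of M-values (TMM) scaling, which sets the typical gene to no change. Counts for the main lists and the fold changes of the leading genes are therefore given under both, other fold changes are under total-count scaling unless stated, and a gene is said to have risen or fallen only if its Benjamini-Hochberg adjusted p in limma was 0.05 or less under both.

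**Figure D1:**
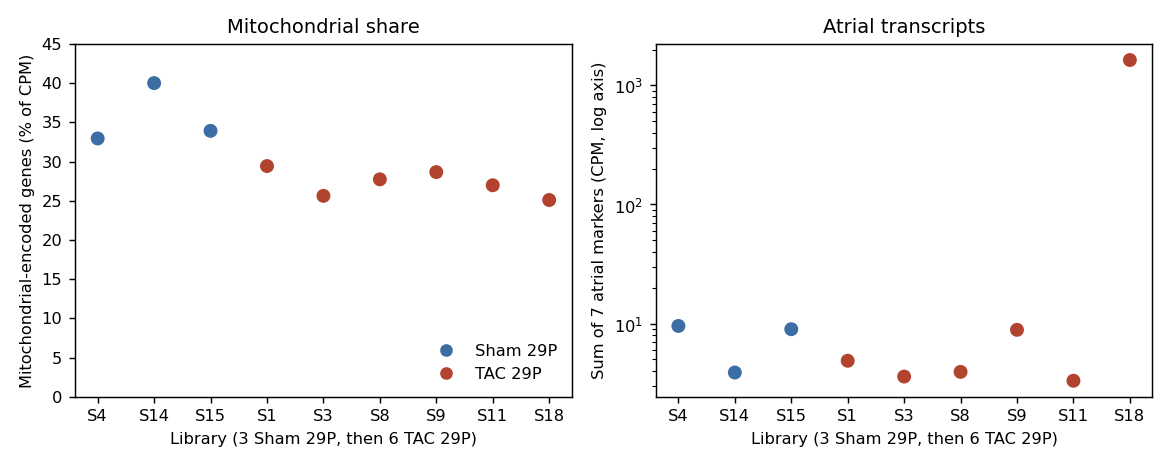
Share of CPM held by mitochondrial-encoded genes (left, %) and summed CPM of 7 atrial markers (right, log axis) in each Sham 29P (blue) and TAC 29P (red) library. All 3 Sham 29P libraries lie above all 6 TAC 29P libraries on the left (32.95% or more against 29.43% or less), and S18 lies apart on the right at 1633 CPM.

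Under total-count scaling, 5110 of the 16218 genes (31.5%) were higher in TAC 29P than in Sham 29P and 187 (1.15%) were lower at an adjusted p of 0.05. Under TMM scaling 955 (5.89%) were higher and 873 (5.38%) were lower, so the split of the calls depended on the scaling. All 955 genes higher under TMM scaling were also higher under total-count scaling, and all 187 genes lower under total-count scaling were also lower under TMM scaling, so these 955 and 187 genes rose and fell by the rule above. The counts depended on single libraries, most of all on S14. Without S14, 1009 genes (6.22%) were higher and 38 (0.234%) lower under total-count scaling, and 164 (1.01%) higher and 151 (0.931%) lower under TMM scaling, while 159 genes higher (0.98%) and 29 lower (0.179%) passed under both scalings with and without S14. Without S3, S15 or S4 there were 3346, 3214 and 6347 genes higher and 86, 105 and 246 lower under total-count scaling, and 505, 474 and 1902 higher and 447, 446 and 1794 lower under TMM scaling. Without S9 there were 117 lower under total-count scaling and 596 higher and 555 lower under TMM scaling. Without S18 there were 4938 higher (30.4%) and 228 lower (1.41%) under total-count scaling, and 1076 higher (6.63%) and 1013 lower (6.25%) under TMM scaling. At an unadjusted p of 0.05, 43.4% of genes were higher and 2.05% lower under total-count scaling, and 14.9% and 14.2% under TMM scaling. The CPM of the groups did not overlap for 25% of genes higher after TAC and 1.08% lower, and after TMM scaling for 6.89% and 7%. The numbers that stand before the library numbers in the descriptions form 4 runs, whose meaning the labels do not give, and only 1 run holds both 29P groups (5 TAC libraries and S4). With the number run in the model, 820 genes were higher (5.06%) and 34 lower (0.21%) under total-count scaling, and 164 higher (1.01%) and 105 lower (0.647%) under TMM scaling.

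**Figure D2:**
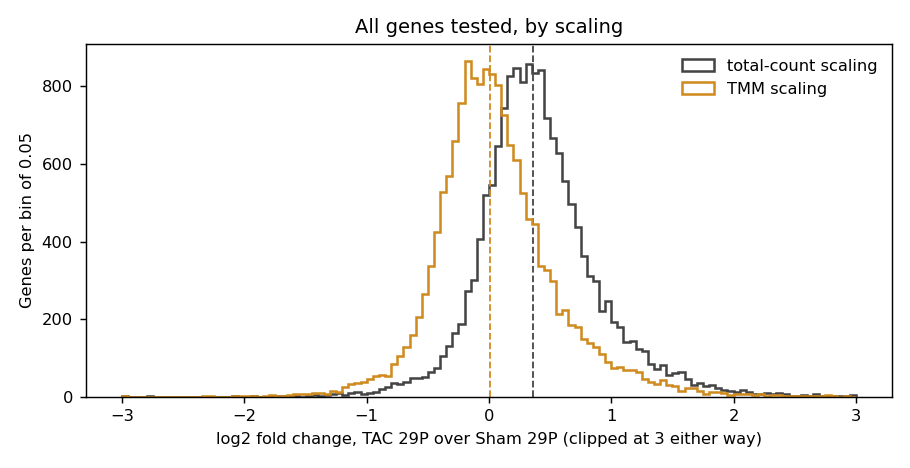
Number of genes per bin of 0.05 against the log2 fold change of TAC 29P over Sham 29P, for total-count scaling (grey) and TMM scaling (orange), with dashed lines at the medians. The whole distribution shifts from a median of 0.36 to 0.01 between the scalings.

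Of the 13620 tested genes that the GENCODE annotation calls protein-coding, 4758 were higher and 151 lower under total-count scaling (median log2 fold change 0.38) and 910 higher and 770 lower under TMM scaling (median 0.02). Of the 1014 long noncoding RNAs tested, 124 were higher and 22 lower under total-count scaling (median 0.25), whereas 22 were higher and 48 lower under TMM scaling (median −0.09). All genes shifted between the scalings in the same way (5110 higher and 187 lower against 955 and 873). The difference between the classes was not tested.

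Cardiomyocyte stress and fetal genes were higher after TAC. Of 15 listed genes 14 were tested, 13 were higher under total-count scaling (31.5% of all genes were) and 10 under TMM scaling (5.89% of all), none was lower, and the median log2 fold change was 1.83 and 1.46. Without S14, 9 and 5 of the 14 were called higher under the respective scalings, with a TMM median of 1.49. This list and those below were chosen with earlier results of these data known. Their counts beside the shares of all genes are therefore a description and not a test.

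Acta1 (skeletal muscle α-actin, the fetal actin isoform of the ventricle, chr8:123891769-123894751 in mm10) was at 319, 154 and 128 CPM in Sham 29P S4, S14 and S15 and between 1418 and 3926 CPM (median 2456) in TAC 29P. Every TAC 29P library lay above every Sham 29P library, the lowest being S18. Its log2 fold change was 3.75 (SE 0.37, limma adjusted p = 3.42e-05) under total-count scaling and 3.38 (adjusted p = 6.66e-05) under TMM scaling, and 3.62 (adjusted p = 0.000805) without S14.

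Myh7 (the slow β-myosin heavy chain, chr14:54970684-54994626) was at 99.95, 107 and 242 CPM in Sham 29P S4, S14 and S15 and between 983 and 2710 CPM (median 1546) in TAC 29P, again with no overlap. Its log2 fold change was 3.55 (SE 0.32, limma adjusted p = 2.98e-05), and 3.18 under TMM scaling. Myh6, the fast adult isoform, overlapped between the groups, with 14858, 11991 and 20476 CPM in the Sham libraries, 10367 to 17322 CPM after TAC and a log2 fold change of −0.13 (limma adjusted p = 0.65).

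The natriuretic peptides, hormones released by stretched muscle that lower blood volume and pressure, both rose. Nppa (atrial natriuretic peptide, chr4:148000722-148002079) was nearly level across the Sham 29P libraries, at 132, 136 and 130 CPM, but spread from 601 to 3373 CPM (median 1765) after TAC, with S1 lowest and S3 highest. Its log2 fold change was 3.70 (SE 0.81, limma adjusted p = 0.00534) and 3.33 under TMM scaling (adjusted p = 0.0146). Nppa is also an atrial gene, and S18, the library with atrial markers, had 3085 CPM. Without S18 the log2 fold change was 3.53 (adjusted p = 0.00942), and without S14 the TMM call was lost (adjusted p = 0.073).

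Nppb (brain natriuretic peptide, chr4:147985788-147987205) was at 160, 124 and 96.8 CPM in Sham 29P and between 428 and 814 CPM (median 641) in TAC 29P, with a log2 fold change of 2.34 (SE 0.25, limma adjusted p = 9.7e-05) and 1.97 under TMM scaling. Ankrd1, a stretch-responsive ankyrin repeat protein of the sarcomere and nucleus, was at 1048, 1564 and 924 CPM against 3114 to 6233 CPM, a log2 fold change of 1.92 (SE 0.22, limma adjusted p = 0.000204) and 1.55 under TMM scaling. Both groups of libraries were separate for each gene, and all of Acta1, Myh7, Nppb and Ankrd1 passed under both scalings with and without S14. With the number run in the model they also passed under both scalings, the highest adjusted p being 0.028, for Ankrd1 under TMM scaling.

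**Figure D3:**
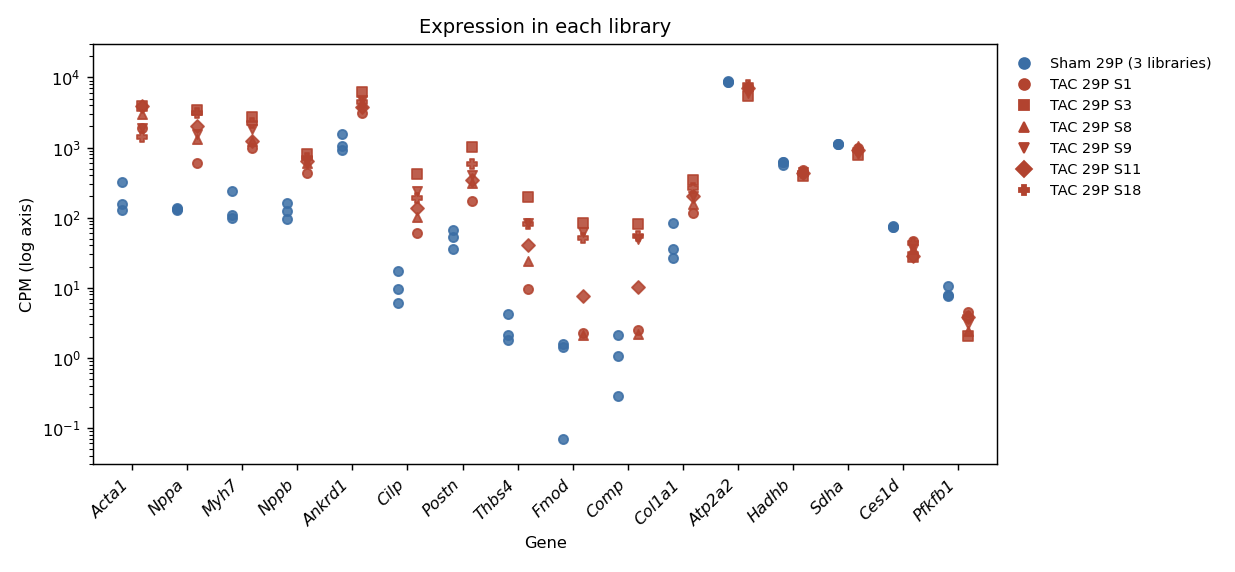
CPM (log axis) of 16 genes in each of the 3 Sham 29P (blue) and 6 TAC 29P (red, 1 symbol per library) libraries. Stress and matrix genes lie higher after TAC, with S3 the highest TAC library for all 6 matrix genes and S1 and S8 near the Sham values for Fmod and Comp, while Hadhb, Sdha, Ces1d and Pfkfb1 lie lower.

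The 10 genes named for the largest rise were Acta1, Nppa, Fmod, Thbs4, Cilp, Comp, Col8a2, Ltbp2, Timp1 and Dio2, the last of which encodes the deiodinase that activates thyroid hormone. Fmod, Thbs4, Comp and Timp1 were below 5 CPM in all 3 Sham 29P libraries, and reached the mean of 5 CPM that the choice asked for through the TAC 29P libraries.

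Cilp (cartilage intermediate layer protein, a matricellular protein, chr9:65265180-65280605) rose from 17.2, 9.52 and 6.04 CPM in Sham 29P S4, S14 and S15 to between 60.8 and 414 CPM (median 165) in TAC 29P. The log2 fold change was 3.99 (SE 0.43, limma adjusted p = 9.7e-05) and 3.62 under TMM scaling, and 3.95 without S14 (adjusted p = 0.0017). Thbs4 (thrombospondin 4, chr13:92751590-92794818) rose from 4.24, 2.12 and 1.82 CPM to between 9.66 and 199 CPM (median 61.2), a log2 fold change of 4.20 (SE 0.69, limma adjusted p = 0.00135) and 3.84 under TMM scaling. Both genes were named by a rule that asked for groups without overlap.

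Fmod (fibromodulin, a collagen-binding proteoglycan) and Comp (cartilage oligomeric matrix protein) were spread widely within TAC 29P. Fmod was at 83.1, 62.9 and 50.8 CPM in S3, S9 and S18, at 7.62 CPM in S11 and at 2.28 and 2.13 CPM in S1 and S8, against 1.57, 0.07 and 1.41 CPM in Sham 29P. Comp followed the same division, with 80.8, 49.7 and 54.8 CPM in S3, S9 and S18, 10.4 CPM in S11, and 2.46 and 2.18 CPM in S1 and S8, against 2.12, 0.28 and 1.06 CPM. Thus 2 of the 6 TAC 29P libraries lay close to the Sham range for both genes. Their log2 fold changes were 4.30 (SE 1.21, limma adjusted p = 0.0158) and 3.96 (SE 1.08, adjusted p = 0.0141), with 4.02 and 3.63 under TMM scaling, and neither passed without S14 (adjusted p = 0.13 and 0.11).

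S3 was most often the TAC 29P library farthest from Sham 29P. Of the 955 genes that rose, S3 was the highest TAC library for 629 (65.9%). S1 was the lowest for 433 (45.3%) and S18 for 237 (24.8%). Over all genes tested S3 was highest for 27.5%, and S1 and S18 were lowest for 20.3% and 26.9%. Among the 187 genes that fell, S3 was the lowest TAC library for 123 (65.8%, against 10.7% over all genes), and S18 and S1 were the highest for 74 (39.6%, against 28.2% over all genes) and 64 (34.2%, against 6.59%).

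The collagen and matricellular lists had medians above that of all genes and, with all libraries in the model, no member lower. Of 23 genes for fibrillar collagens and their processing, 18 were higher under total-count scaling and 16 under TMM scaling (31.5% and 5.89% of all genes were), with a median log2 fold change of 1.58 and 1.21, and none was lower. All 16 passed under both scalings, and 10 also without S14. Of 12 tested collagens outside the fibrils and basement membrane, 10 rose (8 also without S14), with a median of 1.71 under total-count and 1.34 under TMM scaling. Of 36 matricellular, elastic and proteoglycan genes, 22 rose (13 also without S14), with medians of 1.60 and 1.24. Without S18, 1 of these 36 genes and 1 of the 12 collagens were lower under TMM scaling. For the 16218 genes tested the medians were 0.36 and 0.01.

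Col1a1 and Col3a1, the main interstitial collagen chains of the heart, were at 83.2, 26.1 and 35.2 CPM and at 220, 112 and 99.1 CPM in Sham 29P S4, S14 and S15. In TAC 29P they ranged from 114 to 341 CPM (median 202) and from 329 to 897 CPM (median 499.9), with no overlap. The log2 fold changes were 2.25 (SE 0.35, limma adjusted p = 0.00108) and 2.02 (SE 0.30, adjusted p = 0.000745), with 1.88 and 1.65 under TMM scaling, and 1.90 and 1.89 without S14 (adjusted p = 0.014 and 0.0099). S4, the Sham library nearest to the TAC values, gave the highest Sham level of both genes. S4 is also the only Sham 29P library in the number run that holds both 29P groups. With the number run in the model, 11 of the 23 fibrillar collagen and processing genes were higher under total-count and 10 under TMM scaling.

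Postn (periostin, a matricellular protein of activated fibroblasts) rose from 66.0, 52.4 and 35.5 CPM to between 173 and 1030 CPM (median 377), a log2 fold change of 3.03 (SE 0.41, limma adjusted p = 0.000579) and 2.66 under TMM scaling. Loxl2, a lysyl oxidase, also rose, with a log2 fold change of 1.73 (SE 0.25, limma adjusted p = 0.00075), as did Col8a1 with 2.44 (SE 0.30, adjusted p = 0.00029). Bgn and Sparc, an abundant proteoglycan and a collagen-binding glycoprotein, had log2 fold changes of 1.79 and 1.56 (limma adjusted p = 0.000579 and 0.000577), and both passed without S14.

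Basement membrane genes had a lower median, with 8 of 19 rising (5.89% of all genes did), none falling and a TMM median of 0.37. The collagen IV chains Col4a1 and Col4a2 were among the 8, with TMM log2 fold changes of 1.18 and 1.22. Of the 8, Col4a3 passed without S14 under both scalings. Of 21 matrix proteases and inhibitors 6 were higher under total-count scaling, a share below the 31.5% of all genes, and 5 rose under both scalings, against 5.89% of all genes, namely Mmp2, Mmp14, Mmp23, Adamts8 and Timp1. Without S14 only Mmp2 and Mmp23 of these passed under both scalings, and the TMM median of the list went from 0.34 to 0.10. Mmp2 (gelatinase A) had a log2 fold change of 1.71 (SE 0.29, limma adjusted p = 0.0016). Timp1, an inhibitor of metalloproteinases, was at 1.80, 0.28 and 0.53 CPM in Sham 29P and at 4.83 to 29.1 CPM in TAC 29P (median 9.33), a log2 fold change of 3.68 (SE 0.70, limma adjusted p = 0.00284) that did not pass under TMM scaling without S14 (adjusted p = 0.064).

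**Figure D4:**
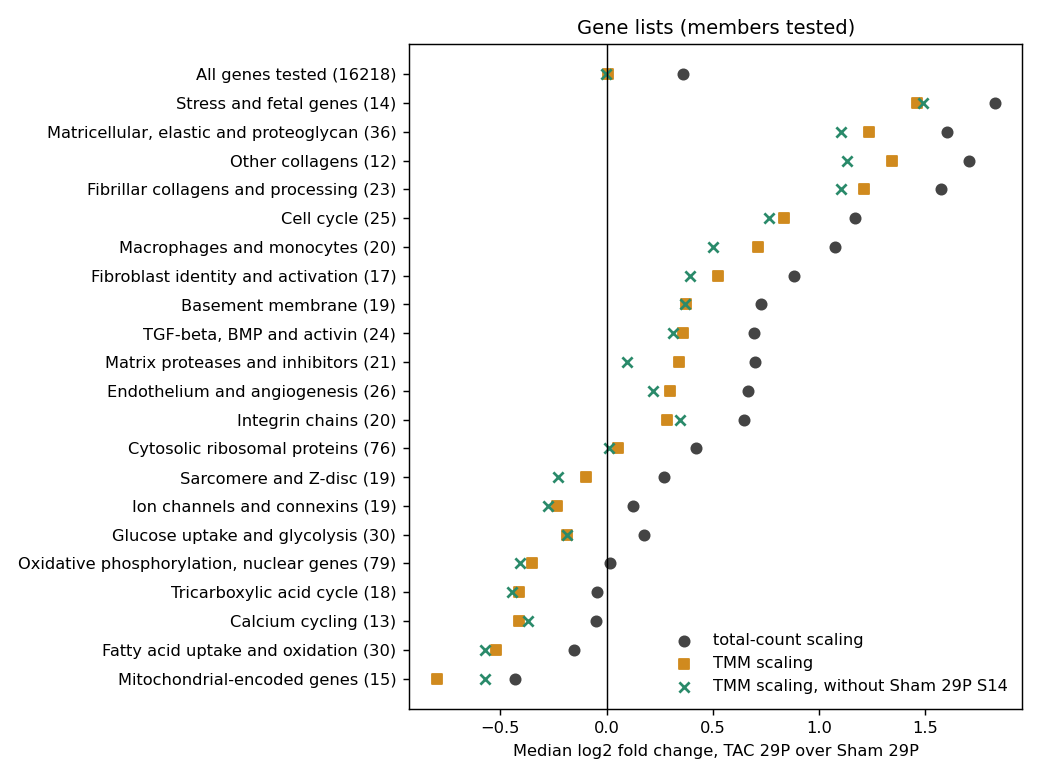
Median log2 fold change of TAC 29P over Sham 29P for each gene list (number of members tested in brackets) under total-count scaling (grey circles), TMM scaling (orange squares) and TMM scaling without Sham 29P S14 (green crosses). Stress, matricellular and collagen lists lie above 1 in all 3, whereas fatty acid, tricarboxylic acid cycle and mitochondrial-encoded lists lie below 0 in all 3.

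Integrins are the family of matrix receptors that 29P targets, and 20 chains and partners were measured. Under both scalings 5 rose (Itga5, Itga9, Itga11, Itgb5 and Itgb7), against 5.89% of all genes, none fell under both, and the median was 0.65 under total-count and 0.29 under TMM scaling. The 2 chains of the receptor for 29P did not pass under both. Itgav was at 26.8, 28.2 and 22.7 CPM in Sham 29P S4, S14 and S15 and between 29.3 and 48.8 CPM (median 31.1) in TAC 29P, with no overlap in CPM but a TMM log2 fold change of 0.02 (limma adjusted p = 0.94). The highest of these values was that of S18. Itgb3 was at 3.18, 0.71 and 3.11 CPM against 2.86 to 9.82 CPM (median 4.43), and overlapped. Its log2 fold change was 1.28 (SE 0.44, limma adjusted p = 0.035) under total-count and 0.94 (adjusted p = 0.14) under TMM scaling, and without S14 neither passed (adjusted p = 0.32 and 0.72). Itga9 was the integrin with the smallest p, with a log2 fold change of 1.16 (SE 0.17, limma adjusted p = 0.00075), and was the one member that passed under both scalings without S14.

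Of 17 fibroblast identity and activation genes, 11 were higher under total-count scaling and 4 (Meox1, Vim, Pdgfrb and Thy1) under both, against 31.5% and 5.89% of all genes. Without S14, 2 were higher under total-count scaling. Meox1, a transcription factor of activated fibroblasts, rose from 23.2, 10.2 and 15.2 CPM to between 42.7 and 134 CPM, a log2 fold change of 2.21 (SE 0.35, limma adjusted p = 0.0012). It was the one that also passed without S14 under both scalings. Among 24 genes of the TGF-β, BMP and activin system, signals that control matrix production, 7 rose (5.89% of all genes did), of which 2 (Fstl1 and Tgfbr2) also passed without S14 under both scalings. The ligands Tgfb1, Tgfb2 and Gdf15, the receptors Tgfbr2 and Acvr1, and the binding proteins Fstl1 and Fstl3 made up the 7. Fstl1 was at 136, 90.9 and 95.8 CPM in Sham 29P and between 239 and 584 CPM in TAC 29P, with a log2 fold change of 1.77 (SE 0.24, limma adjusted p = 0.00058), and passed without S14 (adjusted p = 0.0079 and, under TMM scaling, 0.017).

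Macrophage genes had a median above that of all genes under both scalings. Of 20 macrophage and monocyte genes 9 rose (5.89% of all genes did), including the complement genes C1qa, C1qb and C1qc and the monocyte receptor Ccr2, with a median of 1.08 under total-count and 0.71 under TMM scaling. C1qb, for example, went from 43.7, 18.8 and 24.5 CPM to between 49.9 and 75.0 CPM, a log2 fold change of 1.05 (SE 0.21, limma adjusted p = 0.0036). Only Trem2 of the 9 passed under both scalings without S14, and with the number run in the model 2 of the 20 genes were higher under total-count and none under TMM scaling. None of the 26 endothelial and angiogenesis genes passed under TMM scaling, although 14 were higher under total-count scaling, where 31.5% of all genes were. Without S14, 3 were higher under total-count scaling, and with the number run in the model 4 were and 1 (Angpt1) was lower under both scalings. Without S18, 17 were higher under total-count scaling, and under TMM scaling Cdh5 and Egfl7 were higher and Angpt1 lower. The hypoxia factor Hif1a was at 71.5, 93.9 and 64.4 CPM against 90.3 to 120 CPM, a log2 fold change of 0.39 (limma adjusted p = 0.023) under total-count and 0.03 (adjusted p = 0.92) under TMM scaling. The marker sums of S14 were the lowest of the 9 libraries, as given above.

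Of 25 cell cycle genes 8 rose, among them Top2a, Mcm6 and Ccnb2, and 1, Cenpf, fell, against 5.89% and 1.15% of all genes. Top2a, a topoisomerase of dividing cells, had a log2 fold change of 1.39 (SE 0.26, limma adjusted p = 0.0028), from 6.92, 3.595 and 3.40 CPM to between 8.80 and 14.7 CPM. Cenpf, a kinetochore protein, moved the other way, from 22.8, 33.1 and 30.8 CPM to between 8.62 and 19.8 CPM, a log2 fold change of −1.28 (SE 0.31, limma adjusted p = 0.0081). Without S14 no member was called under both scalings, Cenpf included, and with the number run in the model none was called under TMM scaling.

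Genes of fatty acid oxidation and the tricarboxylic acid cycle had medians below 0 under both scalings. Of 30 genes of fatty acid uptake and oxidation, 7 were lower under total-count scaling and 19 under TMM scaling, against 1.15% and 5.38% of all genes, and all 7 passed under both. The median log2 fold change was −0.15 and −0.52. Without S14, 4 and 9 were lower, with medians of −0.30 and −0.57. Hadhb (a subunit of the mitochondrial trifunctional protein of β-oxidation, chr5:30155248-30184593) was at 565, 623 and 623 CPM in Sham 29P S4, S14 and S15 and between 398 and 473 CPM (median 438) in TAC 29P. The groups did not overlap, and the log2 fold change was −0.46 (SE 0.09, limma adjusted p = 0.00382) under total-count and −0.82 (adjusted p = 0.00183) under TMM scaling. Of the 7 genes lower under both scalings, Hadhb was the one that also passed under both without S14 (limma adjusted p = 0.029 and 0.021). Decr1 and Etfa, a reductase and an electron carrier of the same pathway, fell by 0.42 and 0.39 on the log2 scale (limma adjusted p = 0.01 and 0.0099).

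Of 18 genes of the tricarboxylic acid cycle 3 fell under both scalings (Sdha, Sucla2 and Suclg2) and 13 were lower under TMM scaling, against 1.15% and 5.38% of all genes. Without S14 none of the 3 passed under both scalings, and 5 were lower under TMM scaling. Sdha, the flavoprotein subunit of succinate dehydrogenase, was narrow in the Sham group at 1127, 1107 and 1129 CPM and lay between 783 and 1038 CPM (median 910) after TAC, a log2 fold change of −0.31 (SE 0.11, limma adjusted p = 0.0386). For the 79 nuclear genes of oxidative phosphorylation the calls depended on the scaling. There was 1 gene higher and 1 lower under total-count scaling, with a median of 0.02, whereas 26 were lower and none higher under TMM scaling, with a median of −0.35. Without S14 the medians were −0.13 and −0.41, and 7 of the 79 were lower under TMM scaling. With the number run in the model nearly all of these calls were lost: under TMM scaling 1 fatty acid gene (Hadhb) was lower, and no gene of the cycle or of oxidative phosphorylation, and none of the 3 lists had a lower gene under total-count scaling. The 15 tested mitochondrial-encoded genes had a median of −0.43 under total-count scaling, where 9 were lower, and all 9 passed under both scalings. None passed without S14.

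Of the calcium cycling genes, 2 of 13 were lower under total-count and 6 under TMM scaling, and 1 was higher under both. Of all genes 1.15% and 5.38% were lower, and 5.89% higher under both. Without S14 none was lower under total-count and 1 under TMM scaling, and none was higher under both. Without S18, 4 were lower under total-count scaling, and with the number run in the model none was called under either scaling. Pln (phospholamban, the inhibitor of the sarcoplasmic reticulum pump) fell from 5994, 7882 and 5723 CPM to between 4071 and 5037 CPM (median 4776), with a log2 fold change of −0.47 (SE 0.13, limma adjusted p = 0.0135). The pump gene itself, Atp2a2, was at 8959, 8530 and 8652 CPM in Sham 29P and between 5431 and 7893 CPM (median 7181) in TAC 29P. It did not overlap between the groups, yet its log2 fold change of −0.36 (SE 0.15, limma adjusted p = 0.0712) passed only under TMM scaling (−0.72, adjusted p = 0.0107). Neither gene passed without S14. The one higher gene, Casq1, encodes the calsequestrin typical of skeletal muscle and had 13.3, 7.40 and 4.46 CPM in Sham 29P against 10.8 to 30.9 CPM in TAC 29P. Skeletal muscle markers summed to 1.25 to 3.71 CPM in TAC 29P and 1.34 to 2.26 CPM in Sham 29P.

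Of 19 ion channel and connexin genes, 2 fell (the potassium channel genes Kcnv2 and Kcnd2) against 1.15% of all genes, and none rose. Neither passed under both scalings without S14. Kcnv2 went from 9.27, 7.47 and 9.27 CPM to between 2.09 and 4.72 CPM, a log2 fold change of −1.22 (SE 0.33, limma adjusted p = 0.0142). In the adrenergic list, 1 of 8 tested genes rose and 1 fell, against 5.89% and 1.15% of all genes. The receptor kinase Grk5 rose by a log2 fold change of 1.18 (SE 0.19, limma adjusted p = 0.0012). The receptor gene Adra1a fell, with a log2 fold change of −0.72 (SE 0.24, limma adjusted p = 0.03). Only Grk5 passed without S14 under both scalings, and with the number run in the model neither passed under TMM scaling.

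In the natriuretic peptide and renin-angiotensin list, Ace (the angiotensin-converting enzyme) was the one of 14 genes that rose, a share near the 5.89% of all genes. It was at 45.2, 25.7 and 45.3 CPM in Sham 29P and between 72.6 and 108 CPM (median 88.3) in TAC 29P. Mme (neprilysin, which degrades natriuretic peptides) and Corin, the protease that cuts the natriuretic peptide precursor, fell. Mme was at 11.02, 11.4 and 11.7 CPM against 5.13 to 10.3 CPM (median 7.54), and its log2 fold change was −0.62 (SE 0.21, limma adjusted p = 0.035), against −0.55 for Corin (adjusted p = 0.021). None of the 3 passed under TMM scaling without S14.

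Of 30 genes of glucose metabolism, Pfkp, a phosphofructokinase isoform, rose and 2 fell under both scalings (5.89% and 1.15% of all genes did), while 8 were higher under total-count scaling, where 31.5% of all genes were, and 8 lower under TMM scaling, where 5.38% were. Without S14 these counts were 1 higher and 2 lower, and Pfkp did not pass under TMM scaling. Pfkfb1, which makes and breaks down the fructose bisphosphate that controls glycolysis, was among the 10 genes with the largest fall. It was at 10.6, 7.89 and 7.57 CPM in Sham 29P and between 2.04 and 4.56 CPM (median 3.39) in TAC 29P, a log2 fold change of −1.42 (SE 0.30, limma adjusted p = 0.00453), and passed without S14 under both scalings. The coactivator Ppargc1a, a regulator of mitochondrial genes, was at 81.9, 78.8 and 265 CPM in Sham 29P and between 47.6 and 119 CPM in TAC 29P. These ranges overlapped, and the log2 fold change of −0.75 (SE 0.48) did not pass (limma adjusted p = 0.23). Of 17 regulators of mitochondrial metabolism none passed under both scalings, and 3 (Gabpa, Klf15 and Tfb2m) were lower under TMM scaling, but none without S14 or with the number run in the model. Of 11 creatine kinase and energy transfer genes Ckb, the brain-type creatine kinase, rose, and 5 were lower under TMM scaling, where 5.38% of all genes were. Without S14 Ckb was not called under either scaling, and 2 genes of this list were lower under TMM scaling. None of 78 mitochondrial ribosomal protein genes passed under both scalings, with 13 higher under total-count and 6 lower under TMM scaling, and none of 19 sarcomere and Z-disc genes did, with 7 higher and 2 lower in the same order. Of all genes 31.5% were higher under total-count scaling, and without S14 no gene of either list was.

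The other genes of largest fall had log2 fold changes between −1.28 and −0.90. Ces1d, a carboxylesterase that hydrolyses triglycerides, was nearly constant in Sham 29P at 74.0, 73.9 and 75.8 CPM and lay between 27.3 and 45.8 CPM (median 35.5) in TAC 29P. The log2 fold change was −1.08 (SE 0.18, limma adjusted p = 0.00141) under total-count and −1.44 (adjusted p = 0.00086) under TMM scaling, and it held without S14 (adjusted p = 0.013 and 0.011). Etfbkmt, a methyltransferase acting on electron transfer flavoprotein, went from 21.9, 21.005 and 18.1 CPM to between 7.52 and 12.9 CPM, a log2 fold change of −0.99 (SE 0.16, limma adjusted p = 0.0012). Ppip5k2, an inositol pyrophosphate kinase, and Ppm1k, the phosphatase that activates branched-chain amino acid breakdown, had log2 fold changes of −1.09 and −0.95 (limma adjusted p = 0.0016 and 0.0025). All 4 passed without S14 and with the number run in the model, under both scalings. The splicing factor Rbfox1 (−1.27), Mylk4 (−1.21), Pla2g5 (−0.90), Kcnv2 and Cenpf completed the 10.

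Promoter sequence was examined for the genes that moved together, since stress genes of cardiomyocytes are known to carry the MCAT element bound by TEAD factors, and genes of mitochondrial fuel use the half-site of oestrogen-related receptors. The letters CATTCC (MCAT) and AAGGTCA (receptor half-site) were searched on both strands in the 250 bases before each RefSeq start (GRCm38.p6), which were given for 11297 of the 16218 genes. The windows below are examples, written 5′ to 3′ on the strand of the gene, with matches in capitals. Acta1, Myh7, Thbs4 and Timp1 are stress or matrix genes that rose and held an MCAT match in a window. Nppb and Ankrd1 also rose and held such a match, but are not shown. Acadm, which encodes medium-chain acyl-CoA dehydrogenase, fell and held a receptor half-site, as did Pfkfb1 and Mylk4, which are not shown. The windows shown lie at chr8:123894776-123895025 (minus strand), chr14:54994627-54994876 (minus), chr13:92794819-92795068 (minus), chrX:20869916-20870165 (plus) and chr3:153944644-153944893 (minus).
Acta1: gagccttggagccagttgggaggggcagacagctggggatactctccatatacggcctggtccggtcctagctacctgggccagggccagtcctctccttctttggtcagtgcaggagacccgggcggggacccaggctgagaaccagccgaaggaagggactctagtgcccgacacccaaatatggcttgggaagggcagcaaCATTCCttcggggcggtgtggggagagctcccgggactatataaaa
Myh7: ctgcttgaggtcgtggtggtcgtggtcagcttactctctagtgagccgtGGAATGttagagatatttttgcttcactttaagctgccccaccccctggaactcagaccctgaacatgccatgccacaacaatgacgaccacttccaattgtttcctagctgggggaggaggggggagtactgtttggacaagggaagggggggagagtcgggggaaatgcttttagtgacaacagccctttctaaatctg
Thbs4: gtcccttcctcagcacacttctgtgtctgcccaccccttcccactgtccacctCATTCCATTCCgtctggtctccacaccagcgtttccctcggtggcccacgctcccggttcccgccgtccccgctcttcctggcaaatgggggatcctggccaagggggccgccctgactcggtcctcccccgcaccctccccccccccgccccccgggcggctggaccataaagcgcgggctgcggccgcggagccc
Timp1: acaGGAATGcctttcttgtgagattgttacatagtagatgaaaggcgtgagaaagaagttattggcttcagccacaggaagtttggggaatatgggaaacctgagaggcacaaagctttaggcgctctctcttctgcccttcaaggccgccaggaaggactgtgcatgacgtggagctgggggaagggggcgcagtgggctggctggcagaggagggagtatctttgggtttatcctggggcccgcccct
Acadm: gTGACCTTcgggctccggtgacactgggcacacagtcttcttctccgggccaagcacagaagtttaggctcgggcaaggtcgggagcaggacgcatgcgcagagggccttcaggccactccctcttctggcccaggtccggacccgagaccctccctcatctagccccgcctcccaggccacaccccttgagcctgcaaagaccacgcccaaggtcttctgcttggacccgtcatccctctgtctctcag
Myh7 has another RefSeq start, whose window (chr14:54994550-54994799) held no match. The match begins 46 bases before the start in Acta1, 201 in Myh7, 247 in Timp1 and 249 in Acadm, and Thbs4 held a pair of overlapping matches at 197 and 192. An MCAT match was held by 5 of 12 stress and fetal genes with a promoter (41.7%), by 4 of 9 of the named genes that rose (44.4%), by 1 of 8 of those that fell (12.5%), by 5 of 24 fatty acid genes (20.8%) and by 13.2% of all genes with a promoter. A receptor half-site was held by none of the 9 named genes that rose, by 2 of 8 of those that fell (25%), by 1 of 24 fatty acid genes (4.17%) and 5 of 64 oxidative phosphorylation genes (7.81%), against 3.49% of all. A match is a description of these letters only, the groups are small, and no test was made. Acadm itself was at 899, 912 and 964 CPM in Sham 29P and between 627 and 825 CPM in TAC 29P, a log2 fold change of −0.35 (SE 0.11, limma adjusted p = 0.025).

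Whether the surgery effect under 29P differed from that under saline was tested as the difference of the 2 effects, which share no library. At an adjusted p of 0.05 no gene differed (0% of 16218 under either scaling, limma), the smallest adjusted p being 0.999 under total-count and 0.993 under TMM scaling. At an unadjusted p of 0.05, 463 genes (2.85%) and 568 genes (3.5%) passed. Among the lists, 21 of the 79 nuclear genes of oxidative phosphorylation passed that unadjusted threshold under total-count scaling and 8 under TMM scaling, each of the 21 with the more positive effect under 29P. The median log2 fold change of this list was 0.02 under 29P and −0.27 under Veh on total-count scaling, and −0.35 and −0.60 on TMM scaling. Without S14 the 29P medians were −0.13 on total-count and −0.41 on TMM scaling. None of the 21 genes passed after adjustment. In Veh mice TAC gave 3827 genes higher (23.6%) and 321 lower (1.98%) under total-count scaling and 722 higher (4.45%) and 923 lower (5.69%) under TMM scaling. The authors had removed a TAC Veh library because it clustered with Sham mice, and another, with a Sham 29P library, for low reads. The TAC Veh libraries were thus kept partly for lying apart from Sham. How far this enlarged the Veh effect was not tested.

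Stress genes had these effects. Acta1 had a log2 fold change of 3.75 (SE 0.37) under 29P and 3.72 (SE 0.38) under Veh, a difference of 0.03 (SE 0.53). Myh7 had 3.55 (SE 0.32) and 4.08 (SE 0.33), a difference of −0.54 (SE 0.46). Nppa had 3.70 (SE 0.81) and 2.07 (SE 0.84), a difference of 1.62 (SE 1.17, limma adjusted p = 0.999). The Sham Veh group holds 2 libraries with atrial transcripts, S19 and S20, at 2776 and 2229 CPM summed over the same 7 markers, and the part of this in the Nppa values was not tested.

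For 5 of the matrix genes described above, the differences were smaller than their standard errors: −0.16 (SE 0.99) for Thbs4, 0.15 (SE 0.62) for Cilp, −0.40 (SE 0.59) for Postn, 0.16 (SE 0.50) for Col1a1 and 0.28 (SE 0.43) for Col3a1. The 10 genes named for the smallest unadjusted p were Ces1d, Acot1, Gm6344, Casq1 and Gm10132, with the surgery effect more positive under 29P, and Ccdc85a, Samd4, Nabp1, Prex2 and Myo9a, with it more negative. Ces1d was lower after TAC in both, by a log2 fold change of −1.08 under 29P and −1.999 under Veh (limma adjusted p of the difference 0.999). Acot1, a cytosolic acyl-CoA thioesterase, had −0.43 under 29P and −2.28 under Veh, and its Sham 29P values of 17.8, 4.26 and 12.5 CPM were spread around the TAC 29P range of 5.24 to 10.6 CPM. Samd4, a translational repressor, had 0.34 under 29P and 1.02 under Veh. None of these is a call after adjustment.

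**Figure D5:**
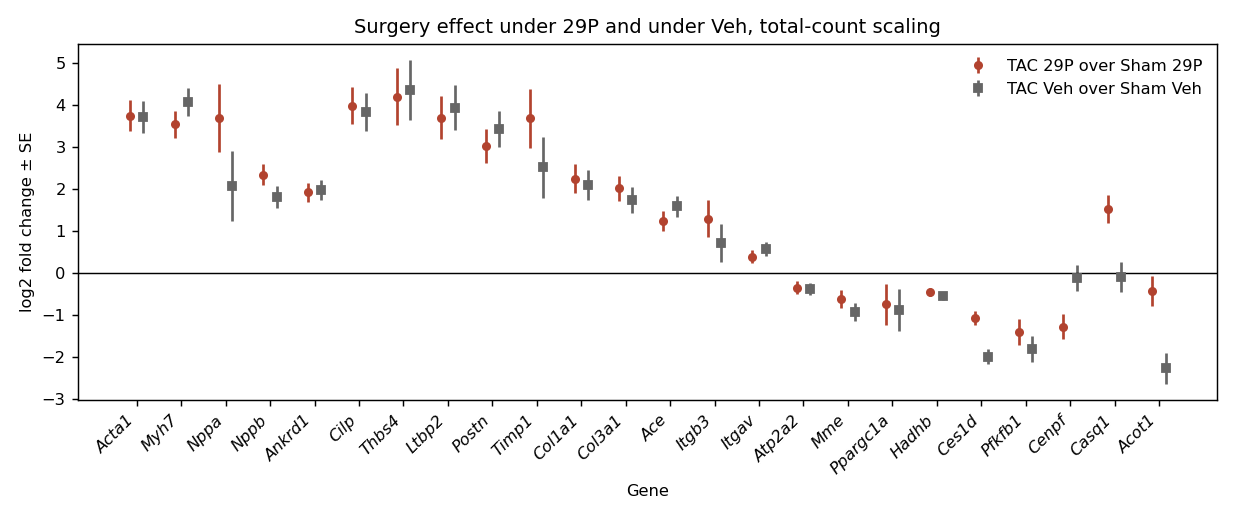
log2 fold change (total-count scaling, ± SE) of TAC over Sham under 29P (red circles, 6 against 3 libraries) and under Veh (grey squares, 3 against 5 libraries) for 24 genes. Acta1, Myh7, Thbs4, Cilp and Postn lie above 3 under both treatments, and the widest gaps are those of Acot1, Nppa and Casq1.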

How the data were processed

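Left ventricular apex RNA was sequenced in 17 libraries, grouped by sample title. Per the labels and methods, the authors used STAR 2.3.7 and Partek with the mm10 genome and deposited CPM values with 0.0001 added. The counting tool and strand setting are not given in the sources used here. The constant was subtracted. Depth, from the step between low values, was 14.2 to 23.8 M reads (median 20.4). Between 81.6 and 84.2% of values under 1 CPM were whole multiples of the step (tolerance 0.05 of it), so reads were not recovered and no count test was run.

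Genes at 0.5 CPM or more in 3 or more libraries (16218) were fitted with limma 3.58.1 (R 4.3.3) on log2(CPM + 0.1), with a mean-variance trend and 1 mean per group over all 17 libraries (13 residual degrees of freedom). A fold change on this scale understates that of low genes. TMM factors trimmed 30% of log ratios and 5% of mean levels. p-values were Benjamini-Hochberg adjusted over all genes. Library measures were compared by exact permutation over 84 splits. On 3 simulated sets of 16218 genes with 200 changed, the TAC 29P against Sham 29P comparison recovered 83.3% of 2-fold and 39% of 1.4-fold changes, and 5.24% of unchanged genes had p of 0.05 or less. Apart from counting noise, the simulated spread of each gene was set below its spread over the 17 libraries and capped. No library was shifted as a whole, as S14 was in the data. These shares therefore do not give the power of the real comparison.

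Named genes were the 10 with the largest log2 fold change each way (passing under both scalings, mean of 5 CPM or more over the 9 libraries, no overlap, no Gm or Rik symbols), the 3 members of each list with the smallest p, 16 genes named outright, and for the difference of surgery effects the 5 smallest p each way. The members and gene lists were chosen with earlier results of these data known. Coordinates are those of GENCODE vM21 (21250 of 21798 symbols occur once in it). Alternatives were other scalings, filters, constants and thresholds, only the 9 libraries, the number run as a covariate, and libraries left out. Calls without S14 and S18 together were added after seeing the data, and TMM scaling with only the 9 libraries was not planned either. Python 3.11.15 with pandas 2.3.3 made the summaries.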

Additional observations from a re-analysis of the deposited data

Results flagged for a closer look

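Of 15 library measures and 139 named genes, 20 had 1 TAC 29P library whose gap to the nearest other exceeded the 95% Dixon limit for 6 samples, where chance gives about 1 in 20. Library S18 accounted for 13 of the 20. It was highest in summed atrial markers (1633 CPM), in the atrial genes Myl4 (518 CPM), Sln (162 CPM) and Mybphl (44.8 CPM), in summed adipocyte markers (11.3 CPM) with Adipoq (2.01 CPM), Cfd (5.66 CPM) and Cidec (2.08 CPM), and in Msln (1.007 CPM) and Itgav (48.8 CPM). It was lowest in Cdh5 (194 CPM), Irx4 (14.3 CPM) and Ppard (15.7 CPM). Library S3 was highest in summed lymphocyte and neutrophil markers (29.5 CPM), Col15a1 (272 CPM), Loxl2 (117 CPM), Rpl3 (40.7 CPM) and Gm6344 (52.9 CPM), and lowest in Ppip5k2 (49.1 CPM). Library S11 was lowest in Casq1 (10.8 CPM). No cause was tested.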

How the results depend on the processing

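The number of genes higher in TAC 29P than Sham 29P and the number of genes lower in TAC 29P than Sham 29P were, in that order, 955 and 873 under TMM scaling, 969 and 833 under median-of-ratios scaling, 2094 and 381 with totals taken without mitochondrial genes, 697 and 551 under TMM scaling with only the 9 libraries, 820 and 34 with the number run, 164 and 105 with TMM scaling and the number run, 1203 and 1045 under TMM scaling without libraries with atrial transcripts, 849 and 48 without S14 and S18, and 175 and 157 without both under TMM scaling. At an unadjusted p of 0.05, 333 genes were lower. Leaving out 1 library at a time gave 1009 to 6347 higher and 38 to 246 lower under total-count scaling and 164 to 1902 higher and 151 to 1794 lower under TMM scaling, lowest without S14 and highest without S4 in each case. The difference of surgery effects stayed at 0 genes in every fit except 1 gene with a constant of 0.0001, and 463 genes passed at an unadjusted p of 0.05. The mitochondrial share differed by −9.71 to −6.18 points with 1 library left out. Under TMM scaling with the number run, 5 of 14 stress and fetal genes and 10 of 23 fibrillar collagen and processing genes were higher. The same fit gave 2 of 20 integrin genes and 2 of 17 fibroblast genes higher.

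Of the 107 named genes called under total-count scaling, 77 were called under TMM scaling, 59 without S14 and 39 under TMM scaling without S14, and 107 with a filter of 1 CPM or a constant of 1. Many were named for passing under both scalings or for a small p, so these counts do not stand for all genes. Of all genes 5110 were higher and 187 lower under total-count scaling, and of these 955 and 187 passed under both scalings. With the number run 52 of the 107 were called, and 39 with TMM scaling and the number run. Those that changed sign had log2 fold changes near 0. Under TMM, median-of-ratios and TMM scaling of the 9 libraries Tnnc1 had −0.04, −0.04 and −0.04, Myoz2 −0.06, −0.06 and −0.06, Mrps23 −0.02, −0.01 and −0.02, and Slc25a5 −0.01, −0.01 and −0.02. With TMM scaling and the number run Mrps23 had −0.01 and Slc25a5 −0.09. Under TMM scaling without libraries with atrial transcripts Tnnc1 had −0.01, Myoz2 −0.02 and Slc25a5 −0.02, and without S14 and S18 Actc1 had −0.06, Myoz2 −0.00 and Slc25a5 −0.03. With 1 library left out, over both scalings, values ran from −0.14 to 0.39 for Tnnc1, −0.13 to 0.36 for Myoz2, −0.05 to 0.40 for Mrps23, −0.03 to 0.46 for Slc25a5, −0.10 to 0.55 for Hif1a and −0.05 to 0.54 for Actc1. The cause was not tested.

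No paired analysis was possible because each library number occurs once in the series. With 3 Sham 29P libraries and no read counts, counting error could not be separated from the spread between libraries.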

Other observations

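B lymphocyte genes, at the edge of detection, were higher in TAC 29P than in Sham 29P. Of 5 tested lymphocyte and neutrophil markers the 3 B cell genes passed under both scalings (5.89% of all genes were higher under both), and 2 of them without S14 under total-count scaling but none under TMM scaling. Ms4a1 (the CD20 gene) was at 0.28, 0.14 and 0.12 CPM in Sham 29P S4, S14 and S15 and between 0.63 and 3.14 CPM (median 1.20) in TAC 29P, a log2 fold change of 2.36 (SE 0.47, limma adjusted p = 0.0032). Cd79b, a chain of the B cell receptor, was at 0.60, 0.28 and 0.29 CPM against 1.38 to 4.78 CPM, and library S3 was highest for both. Under Veh the log2 fold changes were 0.43 and 1.19. In Sham Veh libraries Ms4a1 ranged from 0.27 to 1.28 CPM and Cd79b from 0.40 to 1.71 CPM, which overlapped the TAC 29P values. The T cell genes Cd3e, Cd3d and Trbc2 were at 0.52 CPM or less in all 9 libraries.

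Cytosolic ribosomal protein genes followed the scaling: 36 of 76 were higher under total-count scaling, where 31.5% of all genes were (median log2 fold change 0.42) and 1 under TMM scaling (median 0.05). Without S14, 1 was higher under total-count scaling, and with the number run none. Of 19 immediate-early genes 6 were higher under total-count scaling, a share like that of all genes, and none under TMM scaling, and without S14 none under either. Among 20 unfolded protein and integrated stress response genes 6 were higher under total-count scaling, near the 31.5% of all genes, and 1, Asns, rose under both, near the 5.89% of all genes (log2 fold change 1.14, limma adjusted p = 0.0066), and Herpud1, Dnajb9 and Canx were lower under TMM scaling (5.38% of all genes were). Without S14 none of these was called. Red blood cell markers summed to 1036 to 4151 CPM in TAC 29P and to 1680, 562 and 1494 CPM in Sham 29P, and none of the 5 passed. No red blood cell, adipocyte, mesothelial, skeletal muscle or atrial marker passed under either scaling.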
